A study of Mus musculus with 3 samples.

Results

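Classical monocytes, the Ly6c2-high monocytes of mouse blood and tissue, were selected in single-cell RNA profiles of mouse lung and compared between 3 libraries. Selection worked on raw UMIs (unique molecular identifiers, each standing for 1 captured RNA molecule). A cell counted as a classical monocyte when it held at least 3 UMIs of Ly6c2, at least 1 of Csf1r and at least 1 of Ccr2. It also had to hold a C1qa, C1qb and C1qc sum under 20, no Cd3d, Cd3e or Cd3g UMI, and at most 1 UMI each of Plet1 and Siglech. These 211 cells were a small fraction of the 30973 cells that passed quality filters. They comprised 70 of 9789 cells in the Control library, 119 of 11537 in Model and 22 of 9647 in PD00. Ly6c2, Ccr2 and Csf1r chose the cells, so their levels are given as a description only.

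Classical monocytes leave the bone marrow, circulate, and enter inflamed tissue through the chemokine receptor CCR2, the receptor of CCL2. Their growth and survival depend on the CSF1 receptor, encoded by Csf1r. In tissue they can mature into nonclassical patrolling monocytes, which lose Ly6C, or into macrophages and antigen-presenting cells, which carry class II major histocompatibility (MHC) molecules. In the allergic lung they are known as a source of recruited macrophages.

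The 3 libraries carried the treatment labels Control, Model and PD00, 1 library each. Per the labels, all were made from lung of mice aged 3 months. The series title names OVA (ovalbumin, an egg protein used to induce allergic airway inflammation) as the inducing agent and calls PD00 a peptidomimetic, a compound built to resemble a peptide. The tissue of all 3 libraries, Model and PD00 included, is labelled as healthy lung, and strain, sex, dose, the number of animals in a library and whether the PD00 mice also received OVA are not given in the sources used here. With 1 library per group, the differences below could not be tested against the spread between replicates. Each 95% interval reflects counting alone, of cells for shares and of UMIs for gene ratios. The intervals of gene ratios take UMIs as independent, although single cells held much of some sums.

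The tables listed 9851 to 11772 barcodes and 80288883 to 83281019 UMIs per library. Among kept cells, 29 to 42 barcodes were shared by each pair of libraries, and none of these belonged to a classical monocyte. The monocytes were deeply sampled for single cells. Their median was 7403 UMIs in Control, 7564 in Model and 9676.5 in PD00, and their summed UMIs were 534609, 1010447 and 263165. A ratio below is the ratio of CPM (UMIs of a gene scaled to an equal total for each sum), and a gene was compared when both sums together held at least 50 of its UMIs.

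Classical monocytes made up the largest share of cells in the Model lung and the smallest in the PD00 lung. Their share of kept cells was 0.715% in Control (exact Clopper-Pearson interval 0.558 to 0.903), 1.03% in Model (0.855 to 1.23) and 0.228% in PD00 (0.143 to 0.345). The Model share was 1.44 times the Control share (counting interval 1.06 to 1.97). The PD00 share was 4.52-fold lower than that of Model (2.85 to 7.49) and 3.14-fold lower than that of Control (1.92 to 5.32). PD00 thus lay below both other libraries, and the intervals of the shares of PD00 did not overlap theirs.

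By point value, the shares of nonclassical monocytes and Cd209a dendritic cells were also highest in Model and lowest in PD00. For these cell types the interval of every ratio between libraries included no difference. C1q-high macrophages did not have this order. Nonclassical monocytes, chosen by Ace with Treml4 or Cd300e and at most 1 Ly6c2 UMI, numbered 62, 84 and 54 cells, and their PD00 share was 0.769 times that of Model (0.536 to 1.09). C1q-high macrophages numbered 114, 422 and 377. Their Model share was 3.14 times that of Control (2.55 to 3.90), and their PD00 share 1.07 times that of Model (0.927 to 1.23). Cd209a dendritic cells, which can resemble monocytes, numbered 17, 25 and 16. Their PD00 share was 0.765 times that of Model (0.382 to 1.49). The intervals of the PD00-to-Model ratio of classical monocytes did not overlap those of nonclassical monocytes or of C1q-high macrophages. These are intervals within 1 pair of libraries, and with no replicate the difference between the cell types was not tested.

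**Figure D1:**
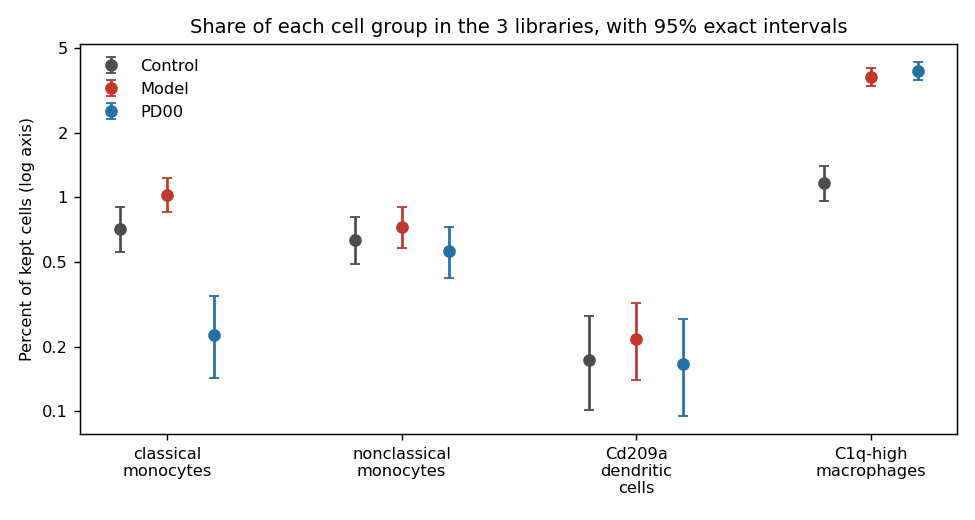
Percent of kept cells (log axis) for 4 myeloid groups in Control, Model and PD00, with points for the 3 libraries and bars for exact 95% intervals. Classical monocytes were at 0.715%, 1.03% and 0.228%, whereas C1q-high macrophages were at 1.16% in Control and above 3% in both other libraries.

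The other selections in this paragraph kept PD00 lowest and Model highest. Without cells holding RNA of nonclassical monocytes, described below, Model was close to Control. With each cell thinned to 2000 UMIs before selection, 12 cells passed in Control, 34 in Model and 1 in PD00. Among cells with a Ptprc UMI (the leukocyte marker CD45) the shares were 0.852%, 1.30% and 0.284%. A lower threshold of 2 Ly6c2 UMIs gave 0.858%, 1.16% and 0.270%.

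The label was checked with F13a1, the coagulation factor XIII A subunit, a marker of classical monocytes that took no part in the selection (chr13:36867178-37050244, GRCm38). Its UMIs numbered 324 in Control, 342 in Model and 197 in PD00, or 606, 338 and 749 CPM. A F13a1 UMI was found in 59 of 70 (84.3%), 60 of 119 (50.4%) and 19 of 22 (86.4%) of the monocytes. Monocytes with a F13a1 UMI were thus no larger a share of kept cells in Model than in Control. With every cell thinned to 1000 UMIs the shares were 42.9%, 26.1% and 45.5%. B cells, which should lack the gene, had a F13a1 UMI in 0.494%, 1.16% and 0.766% of cells at median depths of 3435, 5330.5 and 6397 UMIs, and the gene stood at 1.40, 1.92 and 0.924 CPM there. F13a1 was therefore far above the level of free RNA in all 3 libraries, and lowest in Model. Ly6c2 itself stood at 1506, 1663 and 870 CPM, against 30.7, 270.3 and 271 CPM in the B cells. Of the cells passing all other criteria, 181 of 342 in Model and 119 of 157 in PD00 held no Ly6c2 UMI. Their median depths were 12064 and 11169 UMIs. Whether the B cell level of Ly6c2 was free RNA was not tested. How many cells free Ly6c2 RNA brought over the threshold in Model and PD00 was not tested either.

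Cells near the Ly6c2 threshold carried less F13a1. Among cells passing all other criteria, those with 2 Ly6c2 UMIs, just outside, numbered 14, 15 and 4 and had 203, 186 and 420 CPM of F13a1. Those with 3 UMIs, just inside, numbered 4, 14 and 5 and had 175, 23.8 and 477 CPM. Cells with 0 to 2 UMIs numbered 59, 223 and 135, so the criteria on the other genes alone would have let in many more cells in Model and PD00 than in Control.

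Within the selected cells the level of Ly6c2 ran from 3 to 80 UMIs, and F13a1 was higher where Ly6c2 was higher in Control and Model. In cells with 3 to 5, 6 to 11 and 12 or more Ly6c2 UMIs, F13a1 stood at 406, 516 and 769 CPM in Control and at 151, 275 and 450 CPM in Model. H2-Ab1, the beta chain of the class II molecule I-A, ran the other way in Control, at 1287, 846 and 195 CPM. In Model it was at 1577, 1748 and 829 CPM. The PD00 classes held 7, 7 and 8 cells and had 325, 1226 and 704 CPM of F13a1. Model cells thus had less F13a1 than Control cells in every class, and more H2-Ab1. These levels describe the cells, since Ly6c2 is a selection gene and deeper cells reach higher UMI classes more easily.

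**Figure D2:**
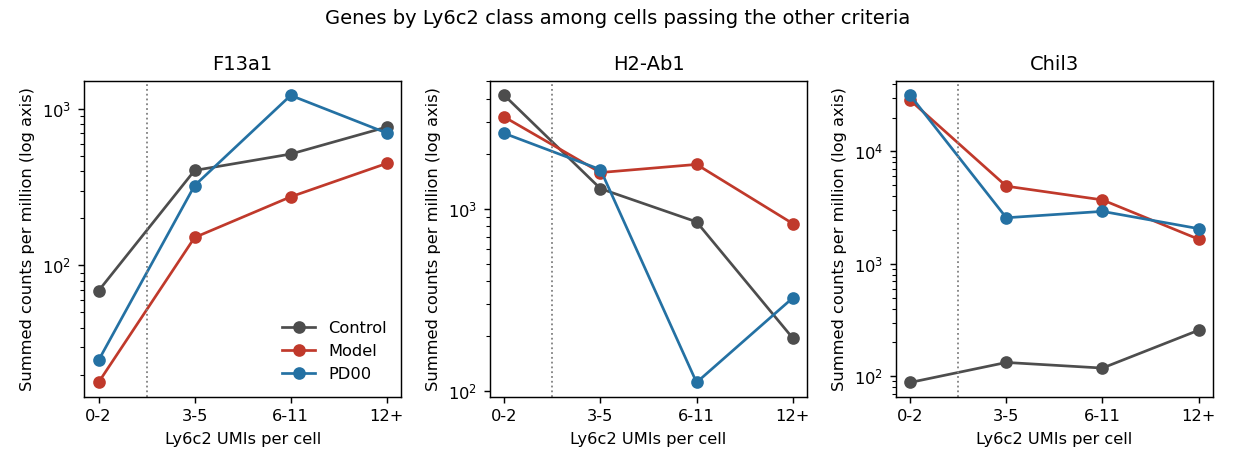
Summed CPM (log axis) of F13a1, H2-Ab1 and Chil3 in cells that passed all criteria other than Ly6c2, by their number of Ly6c2 UMIs, with 1 line for each library and a dotted line at the selection threshold. F13a1 was above 100 CPM in every selected class, and Chil3 reached 28494 CPM in the 223 unselected Model cells.

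Some selected cells also carried RNA of nonclassical monocytes. A UMI of Ace or Treml4, markers of the nonclassical state, was found in 18 of 70 monocytes in Control (25.7%, 16.0 to 37.6), 57 of 119 in Model (47.9%, 38.7 to 57.2) and 8 of 22 in PD00 (36.4%, 17.2 to 59.3). F13a1 stood at 290.3, 86.7 and 562 CPM in these cells and at 708, 570.1 and 828 CPM in the others. Itgal, the alpha chain of the integrin LFA-1, stood at 367, 516 and 459 CPM in them against 139, 167 and 129.9 CPM. B cells had an Ace UMI in 3.29%, 2.32% and 0.958% of cells, below the 14.3%, 38.7% and 27.3% of the monocytes. Without the Ace or Treml4 cells, 52 of 9789 kept cells remained in Control, 62 of 11537 in Model and 14 of 9647 in PD00. The Model and Control shares were then nearly equal, and PD00 stayed lowest. Other values without the Ace or Treml4 cells are given below where they move a result.

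A few selected cells carried RNA of other lineages. At least 5 UMIs of another cell type's markers were found in 2 Control, 13 Model and 2 PD00 monocytes, among them 8 Model and 2 PD00 cells with plasma cell RNA and 5 Model cells with epithelial RNA. Immunoglobulin genes took 0.0125%, 3.82% and 8.03% of the summed UMIs, with up to 43.7% in 1 Model cell and 42.8% in 1 PD00 cell. T cell markers, of which Cd3d, Cd3e and Cd3g were excluded by the selection, summed to 0, 10.9 and 7.60 CPM, with 6, 4 and 5 of 6 at 0. Eosinophil markers summed to 0, 17.8 and 3.80 CPM, with 5, 1 and 4 of 5 at 0. Alveolar macrophage markers summed to 65.5, 28.7 and 11.4 CPM, against 2490.2, 369 and 642 CPM in the other kept cells. Neutrophil markers summed to 1328, 1994 and 1539 CPM, against 3939, 6076 and 4023 CPM in the other kept cells, with Camp, Ngp and Ltf at 0 in Control. Counts that move by over 1.5 times without these mixed cells are given with both values for the lists described below.

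Compared with Control, the Model monocytes had more RNA of interferon-response and class II genes and less of thrombospondin, F13a1 and several chemokines. Of 3815 genes compared, 389 (10.2%) were at least 1.5-fold higher in Model and 337 (8.83%) at least 1.5-fold lower, with a median log2 ratio of -0.06. The higher genes were 53.6% of those past the fold. That split was 41.0% with mitochondrial, ribosomal protein and haemoglobin genes left out of the total, 63.2% with median-of-ratios scaling and 62.3% without the mixed cells.

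Interferon gamma, made by T cells and natural killer cells, acts through transcription factors that include IRF1 and induces guanylate-binding proteins, the immunoproteasome and the peptide transporter TAP. Of 25 genes on the interferon gamma list, 12 were compared. In Model 10 of the 12 were at least 1.5-fold higher than in Control and none was lower, and the list's median log2 ratio was 0.91 against -0.06 for all genes. With genes of any depth it was 0.84 over 23 genes. The higher members were the guanylate-binding protein genes Gbp2, Gbp3, Gbp4 and Gbp7, the regulator Irf1, the high-affinity IgG receptor Fcgr1, the immunoproteasome subunit Psmb9, the transporter genes Tap1 and Tap2, and Cd274, which encodes the ligand PD-L1. All 10 stood higher in the Model monocytes than in the Model B cells, and 9 of them higher than in the Model T cells.

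Promoter sequence is shown for some of the genes named here that hold the core of the interferon-sensitive element. This core is 2 copies of GAAA with any 2 bases between them, searched on both strands. Oas3, Oas1a and Myd88, named below, also held it and are not shown. Capitals mark each match, in which GAAA appears as TTTC where it lies on the other strand. Sequences are from RefSeq with build GRCm38.p6. For Gbp2, Gbp3 and the Fc receptor gene Fcgr4 a 30-base stretch around the match is given, and for the others the 250 bases before the start of the gene.
Gbp2, chr3:142620594-142620623, plus strand: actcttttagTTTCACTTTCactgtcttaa
Gbp3, chr3:142559992-142560021, plus strand: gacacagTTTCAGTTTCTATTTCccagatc
Fcgr4, chr1:171018843-171018872, plus strand: ggtgtttctgGAAAAGGAAActggtgagat
Gbp2b, chr3:142594597-142594846, plus strand: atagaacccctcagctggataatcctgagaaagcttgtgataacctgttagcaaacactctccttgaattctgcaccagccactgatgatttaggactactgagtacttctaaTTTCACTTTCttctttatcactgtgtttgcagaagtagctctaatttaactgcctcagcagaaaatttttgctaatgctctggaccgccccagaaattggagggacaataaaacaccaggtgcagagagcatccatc
Gbp7, chr3:142530086-142530335, plus strand: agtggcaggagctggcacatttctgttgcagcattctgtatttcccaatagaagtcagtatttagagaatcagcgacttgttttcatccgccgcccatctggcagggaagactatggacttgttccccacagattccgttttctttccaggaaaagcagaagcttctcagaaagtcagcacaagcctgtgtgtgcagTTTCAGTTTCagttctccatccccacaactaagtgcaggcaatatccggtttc
Isg15, chr4:156200819-156201068, minus strand: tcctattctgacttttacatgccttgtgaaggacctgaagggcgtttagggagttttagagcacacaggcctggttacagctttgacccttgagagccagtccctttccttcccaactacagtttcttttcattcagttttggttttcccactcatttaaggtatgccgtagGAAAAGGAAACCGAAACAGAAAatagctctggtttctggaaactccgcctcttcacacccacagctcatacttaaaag
The match lay 50 to 59 bases before the RefSeq start in Gbp2, 44 to 53 in Gbp7, 64 to 73 in Fcgr4 and 128 to 137 in Gbp2b. Gbp3 held 2 overlapping matches and Isg15 held 3. Of all 27025 genes with a promoter entry, 936 (3.46%) held this core in these 250 bases. Among the compared genes of the interferon gamma list, 10 of 12 had an entry and 3 of them (Gbp2, Gbp3 and Gbp7) held it. In the type I interferon list 7 of 15 genes with an entry held the GAAA core. Of the class II list 4 genes had an entry, and of the inflammatory list 15, and none held it. A match of letters does not show that a factor is bound.

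Gbp2, a guanylate-binding protein gene at chr3:142620602-142638008 (GRCm38, GENCODE vM21, as all gene positions here), had 13 UMIs in Control, 114 in Model and 4 in PD00, or 24.3, 113 and 15.2 CPM. The Model level was 4.64 times that of Control (2.61 to 8.98). Model stood apart from both other libraries, with UMIs in 42 of 119 cells against 8 of 70 and 4 of 22. B cells had 15.4, 20.4 and 11.8 CPM, so the Control and PD00 monocytes were close to the B cell level. Gbp2b, its neighbour on chromosome 3, had 10, 93 and 6 UMIs, a Model level 4.92 times that of Control (2.56 to 10.6). Gbp3 had 19, 92 and 7 UMIs (2.56 times, 1.55 to 4.45). Its Model-to-Control ratio was 2.45 in B cells (1.56 to 3.99), 1.68 in T cells, 1.83 in nonclassical monocytes and 0.911 in C1q-high macrophages. The ratios of Gbp7 in these groups were 2.71, 1.43, 1.36 and 1.22. Higher Gbp3 in Model was thus not particular to classical monocytes. Gbp4 had 2, 56 and 0 UMIs, with a ratio of 14.8 (3.91 to 125) that rests on the 2 Control UMIs. Reads of these closely related genes may be shared between copies, so their single values are less certain than their common direction.

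Antigen-processing genes and the PD-L1 gene differed less. Psmb9 was at 133, 238 and 79.8 CPM, with a Model-to-Control ratio of 1.79 (1.37 to 2.36). Tap1, which moves peptides into the endoplasmic reticulum, was at 58.0, 107 and 53.2 CPM (1.84, 1.23 to 2.84). Cd274 was at 58.0, 129 and 83.6 CPM (2.22, 1.49 to 3.40). In each of these 3 genes Model was the highest of the 3 libraries. The Model-to-Control ratios of Psmb9, Tap1 and Cd274 were 0.949, 2.80 and 2.41 in nonclassical monocytes. They were 0.822, 1.30 and 3.24 in C1q-high macrophages, and 1.42, 1.93 and 1.06 in T cells. Tap1 and Cd274 were thus not higher in Model in classical monocytes alone. Irf1 was just past the fold, at 1.52 times the Control level, with an interval of 0.932 to 2.56 that includes no difference.

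The largest Model differences included further genes that were not on the interferon lists. Rnf19b, a ubiquitin ligase, had 61, 399 and 43 UMIs (114, 395 and 163 CPM) and was 3.46 times higher in Model than in Control (2.64 to 4.61). It was higher in Model in the other cell groups too: 3.08 times in nonclassical monocytes, 2.36 in C1q-high macrophages, 2.01 in Cd209a dendritic cells, 1.78 in B cells and 2.70 in T cells. Fcgr4, an activating IgG receptor gene, was at 22.4, 88.1 and 53.2 CPM (3.92, 2.14 to 7.88). Fcgr4 belongs to nonclassical monocytes too, and it stood at 151 CPM in the Model cells with an Ace or Treml4 UMI and 30.4 CPM in the Model cells without. Dtx3l, a ubiquitin ligase that works with the antiviral PARP proteins, was at 16.8, 71.3 and 41.8 CPM. The repressor gene Etv3 was at 67.3, 192 and 76.0 CPM, Farsa at 9.35, 50.5 and 34.2 CPM, and Tes at 44.9, 134.6 and 118 CPM. Farsa encodes a subunit of a tRNA synthetase and is a housekeeping gene.

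Type I interferon genes, induced through IRF9 and STAT2 by interferons alpha and beta, were less uniform. Of 38 listed genes, 1 of which (Mx1) has no row in the tables, 21 were compared, 5 were at least 1.5-fold higher in Model than in Control (among them Oasl1, Oas3, Zbp1 and Rtp4) and none was lower, with a median log2 ratio of 0.19. Without the mixed cells 9 were higher, with a median of 0.50. Isg15, a ubiquitin-like modifier, had 85, 150 and 12 UMIs, or 159, 148 and 45.6 CPM, so Model and Control did not differ beyond counting error (ratio 0.934, 0.711 to 1.23). Irf7, the amplifier of type I interferon, was at 228, 338 and 118 CPM (1.48, 1.20 to 1.84).

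Class II antigen presentation genes were higher in Model as well. Of 13 listed genes 7 were compared, and 5 were at least 1.5-fold higher than in Control (H2-Aa, H2-Ab1, H2-Eb1, H2-DMb1 and Cd74) and none lower, with a median log2 ratio of 0.94. H2-Ab1, at chr17:34257689-34269419, had 349 UMIs in Control, 1223 in Model and 159 in PD00, or 653, 1210.4 and 604 CPM, and was 1.85 times higher in Model (1.64 to 2.09). Model held a H2-Ab1 UMI in 92 of 119 cells (77.3%), Control in 28 of 70 (40.0%) and PD00 in 13 of 22 (59.1%). T cells, which should lack the gene, had one in 15.01%, 41.8% and 36.1% of cells, so the share of positive cells was higher in Model and PD00 there too. With cells thinned to 1000 UMIs the shares were 17.1%, 42.0% and 22.7% in the monocytes and 3.79%, 12.6% and 9.43% in the T cells. The T cell level, 87.1, 156 and 127 CPM, stayed well below that of the monocytes. Cd74, the invariant chain, was at 1678, 3215 and 1862 CPM (1.92, 1.78 to 2.07). H2-DMb1, part of the peptide editor H2-DM, was at 52.4, 157 and 79.8 CPM (3.004, 2.001 to 4.67).

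**Figure D3:**
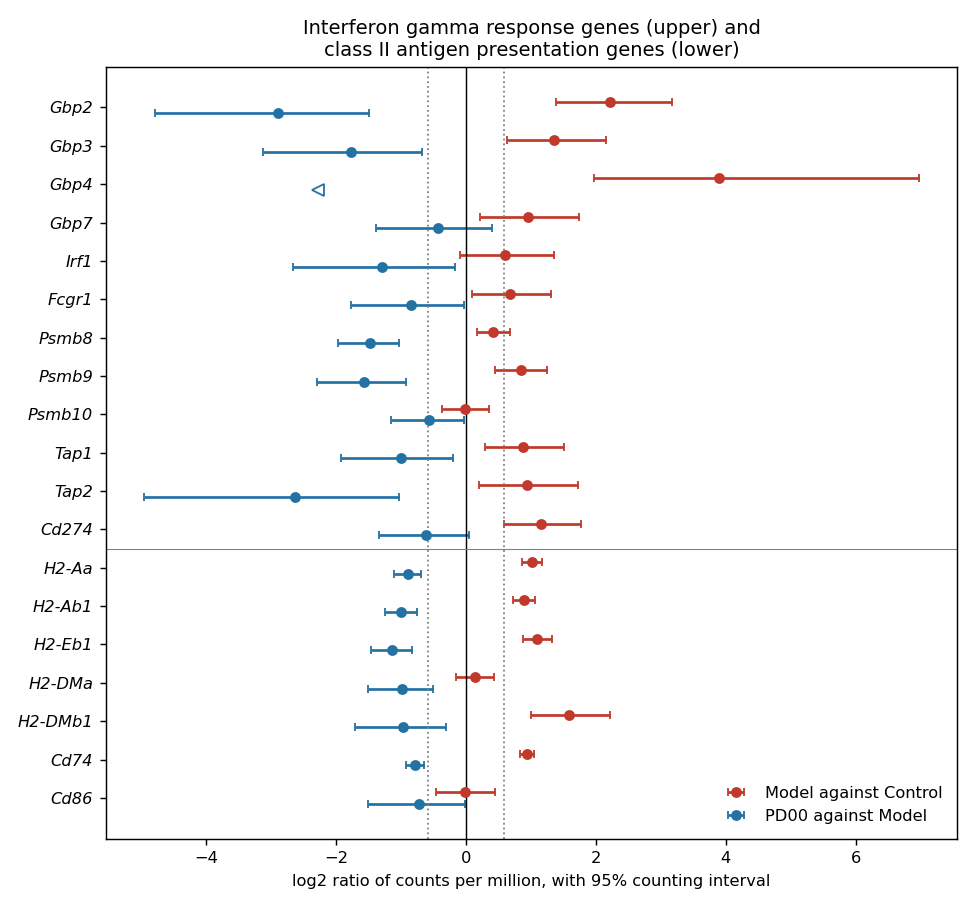
Log2 ratios of CPM with 95% counting intervals for the compared interferon gamma genes (upper) and class II genes (lower), Model against Control in red and PD00 against Model in blue, with dotted lines at 1.5-fold and an open marker for Gbp4, whose PD00 count was 0 and whose point is a bound. Gbp2 lay right of 0 in red (ratio 4.64) and left of it in blue (7.42-fold lower), and all 7 class II genes lay left of 0 in blue.

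These differences did not rest on the mixed or the Ace or Treml4 cells. The interferon gamma median of Model against Control was 1.11 without the mixed cells and 0.92 without cells holding an Ace or Treml4 UMI, where 7 genes were compared. In cells with at least 12 Ly6c2 UMIs it was 0.67. The class II medians under the same restrictions were 0.95, 0.95 and 1.80.

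Classical monocyte genes themselves were lower in Model. Of 20 identity genes 19 were compared, and 8 were at least 1.5-fold lower than in Control (among them F13a1, Hp, Gsr, Lyz2, S100a6, Thbs1 and Cd177) and 1 higher (Chil3), with a median log2 ratio of -0.55. Thbs1, at chr2:118111876-118127133, encodes the matricellular protein thrombospondin and had 831 UMIs in Control, 404 in Model and 309 in PD00, or 1554, 399.8 and 1174 CPM. It was 3.89-fold lower in Model than in Control (3.45 to 4.39), and Model was the lowest of the 3 by a wide margin. B cells had 4.54, 12.004 and 27.5 CPM. F13a1 was 1.79-fold lower (1.53 to 2.09). Without the cells holding an Ace or Treml4 UMI the F13a1 ratio of Model to Control was 0.805 in place of 0.558, and that of Thbs1 was 0.312 in place of 0.257. F13a1 was thus no longer past 1.5-fold without these cells, whereas Thbs1 was.

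Other granule and surface protein genes of classical monocytes followed. Lyz2, lysozyme, was at 21908, 10081 and 9610 CPM and 2.17-fold lower in Model (2.12 to 2.23). Its B cell level was also highest in Control, at 947, 145 and 159 CPM. Cd177, a surface protein shared with neutrophils, was at 148, 61.4 and 137 CPM (2.41-fold lower, 1.71 to 3.41). In Cd177 Model was the low library, whereas in Lyz2 Control was the high one.

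Coagulation genes showed the same direction in Model. Of 15 listed genes 6 were compared, 5 were at least 1.5-fold lower than in Control and none was higher, with a median log2 ratio of -0.75. Without the mixed cells 3 of the 6 were lower, with a median of -0.60. Besides F13a1 and Thbs1 these were F10, coagulation factor X (307, 193 and 247 CPM), F5, factor V (73.0, 47.5 and 68.4 CPM), and Serpinb2, an inhibitor of plasminogen activators (89.8, 38.6 and 49.4 CPM).

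Inflammatory cytokine and chemokine genes were mostly lower in Model than in Control. Of 26 listed genes 19 were compared, 11 were at least 1.5-fold lower and 2 higher (Il1rn and Cxcl16), with a median log2 ratio of -0.68. Without the mixed cells 7 of 18 were lower, with a median of -0.46. Cxcl2, at chr5:90903871-90905938, encodes a chemokine that attracts neutrophils and had 5387, 3204 and 981 UMIs, or 10077, 3171 and 3728 CPM, and was 3.18-fold lower in Model (3.04 to 3.32). Ccl3 was at 228, 51.5 and 53.2 CPM (4.43-fold lower, 3.18 to 6.26). Tnf was at 105, 24.7 and 19.0 CPM (4.23-fold lower, 2.60 to 7.08). Control was the high library in all 3 genes. The B cells of Control also held more of this RNA, with 738, 95.3 and 89.6 CPM of Cxcl2, and the part of free RNA in the difference was not tested. Ccl2 and Ccl4 were 1.60-fold and 1.91-fold lower, but without the Ace or Treml4 cells their ratios were 1.04 and 1.06.

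Other genes were also lower in Model. Gas7 was at 198, 60.4 and 118 CPM and was 3.28-fold lower in Model (2.37 to 4.58). The interferon-induced transmembrane genes Ifitm2 (1960.3, 897 and 977 CPM) and Ifitm6 (569, 256 and 353 CPM) were 2.19-fold and 2.22-fold lower, opposite to the guanylate-binding proteins. Metrnl, a secreted meteorin-like protein, was at 541, 229 and 209 CPM. Apoe was at 2922, 947 and 1117 CPM. Its B cell level was 735, 1248 and 1106 CPM, so in Model and PD00 the monocytes were close to or below the B cells, and only the Control level stood above them. T cells had 91.1, 119 and 166 CPM, below the monocytes in all 3 libraries.

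**Figure D4:**
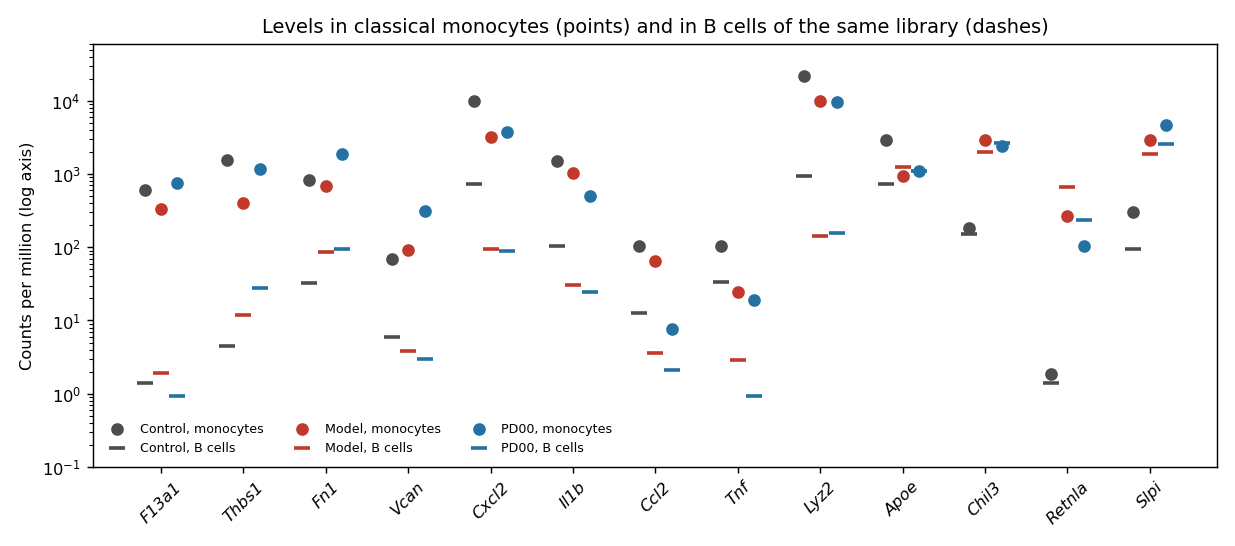
CPM (log axis) of 13 genes in classical monocytes (points) and in B cells of the same library (dashes), in Control, Model and PD00. F13a1 and Thbs1 lay far above the B cells in every library, whereas Chil3 and Retnla in Model and PD00 lay near or below them.

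Genes of alternative activation, which interleukins 4 and 13 induce in macrophages, were counted as higher in Model, but the most abundant of them stood at the level of free RNA. Of 20 listed genes 9 were compared, 6 were at least 1.5-fold higher than in Control and 1 lower, with a median log2 ratio of 0.87. Chil3, the chitinase-like protein Ym1, had 99, 2929 and 638 UMIs, or 185, 2899 and 2424 CPM. T cells of the same libraries had 182, 2647 and 4157 CPM and B cells 150.4, 1991 and 2672 CPM. Retnla, a resistin-like secreted protein, was at 1.87, 265 and 103 CPM in the monocytes and at 1.40, 657 and 238 CPM in the B cells. Neither gene can be read as expressed by the monocytes of Model or PD00 from these values. Tgm2, a transglutaminase, was at 112, 205 and 83.6 CPM against 33.8, 17.5 and 19.4 CPM in B cells, and was 1.83 times higher in Model (1.36 to 2.48). Slpi, a protease inhibitor, was 9.73 times higher in Model, yet 1278 of its 2998 UMIs lay in 1 cell, and without mixed cells the ratio was 0.812.

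Against Model, the PD00 monocytes had less RNA of interferon and class II genes and more of F13a1, Thbs1, Fn1 and Vcan. Of 3349 genes compared, 197 (5.88%) were at least 1.5-fold higher in PD00 and 487 (14.5%) lower, with a median log2 ratio of -0.06. The higher genes were 28.8% of those past the fold, and 38.4% with median-of-ratios scaling, 42.5% without the mixed cells and 39.6% without immunoglobulin genes in the total. The PD00 sum came from 22 cells, and 1 of them held 43365 of its 263165 UMIs. The comparison shares the Model library with that of Model against Control, so a gene read high in that 1 library appears in both.

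Of the 12 interferon gamma genes compared, 10 were at least 1.5-fold lower in PD00 than in Model and none was higher, with a median log2 ratio of -1.39. With genes of any depth the median was -0.82 over 22 genes. Gbp2 was 7.42-fold lower (2.82 to 27.7), Gbp2b 4.04-fold lower (1.79 to 11.3) and Gbp3 3.42-fold lower (1.60 to 8.75). Gbp4, at 0 UMIs in PD00, was at least 4.86-fold lower, taking a count of 0 as 3 counts in the PD00 sum. Psmb9 was 2.98-fold lower (1.90 to 4.90) and Psmb8, another immunoproteasome subunit, 2.80-fold lower at 342, 457 and 163 CPM. Gbp7, which holds the same promoter motif as Gbp2, was 1.36-fold lower, with an interval of 0.760 to 2.61 that includes no difference. The median was -1.33 without the mixed cells, -1.43 without the Ace or Treml4 cells over 6 genes, and -1.42 at 12 or more Ly6c2 UMIs.

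Type I interferon genes differed in fewer members between PD00 and Model. Of 20 compared, 7 were at least 1.5-fold lower (among them Isg15, Ifi47, Irf7, Oas3, Rtp4 and Ifi27l2a) and 1 was higher (Oas1a), with a median log2 ratio of -0.26. Without the mixed cells 5 of 19 were lower and 2 higher, with a median of -0.035. Isg15 was 3.26-fold lower (1.81 to 6.44) and Irf7 2.87-fold lower (1.99 to 4.30).

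All 7 class II genes compared were at least 1.5-fold lower in PD00 than in Model, with a median log2 ratio of -0.98. H2-Ab1 was 2.003-fold lower (1.70 to 2.38), H2-Eb1 2.21-fold lower (1.79 to 2.77) and Cd74 1.73-fold lower (1.57 to 1.90). H2-Aa was 1.86-fold lower (1.62 to 2.15), but with each cell thinned to 1000 UMIs its ratio was 1.03. In 1 PD00 cell lay 101 of the 226 H2-Aa UMIs and 80 of the 159 H2-Ab1 UMIs. Without mixed cells the median was -1.48.

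Classical identity genes were more often higher than lower in PD00 against Model. Of 19 compared, 7 were at least 1.5-fold higher (among them F13a1, Fn1, Vcan, Gsr, Thbs1 and Cd177) and 2 lower (Plac8 and Ms4a4c), with a median log2 ratio of 0.38. Thbs1 was 2.94 times higher in PD00 (2.52 to 3.41) and F13a1 2.21 times higher (1.85 to 2.64). Vcan, the proteoglycan versican, had 37, 92 and 83 UMIs, or 69.2, 91.0 and 315 CPM, and was 3.46 times higher (2.54 to 4.71). Fn1, fibronectin, was at 832, 693 and 1862 CPM (2.69, 2.39 to 3.02). PD00 was the highest library in F13a1, Vcan and Fn1, and between the other libraries in Thbs1.

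The higher identity genes depended in part on which cells were counted. Without the Ace or Treml4 cells the F13a1 ratio of PD00 to Model was 1.45 and that of Thbs1 was 2.54, and the list's median was 0.16. In cells with at least 12 Ly6c2 UMIs, 54 in Model and 8 in PD00, the median was 0.02. Plac8, a small cysteine-rich protein, was at 3268, 3634 and 2010.1 CPM and Ms4a4c, a membrane protein, at 539, 463 and 232 CPM, both lowest in PD00.

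Further genes by which PD00 differed from Model covered several functions. On the higher side, the neutrophil collagenase gene Mmp8 was at 123, 57.4 and 144 CPM and 2.52 times higher (1.63 to 3.85). The transcription factor gene Klf7 was at 125, 52.5 and 125 CPM, Mrpl33, a mitochondrial ribosome subunit, at 471, 261 and 452 CPM, and Frrs1, a ferric reductase, at 67.3, 46.5 and 106 CPM. In these 4 genes Model was the low library. Fnip1, a partner of folliculin in nutrient sensing, was at 65.5, 89.1 and 182 CPM, with PD00 high. On the lower side, Aif1, a calcium-binding protein of macrophages, was at 256, 433 and 141 CPM and 3.08-fold lower (2.20 to 4.44). Cxcr4, the receptor of CXCL12, was at 71.1, 113 and 22.8 CPM, below the 152 CPM of PD00 B cells. Lgals3bp, a secreted galectin-binding protein, was at 52.4, 119.7 and 22.8 CPM. Areg, the growth factor amphiregulin, had 35, 79 and 2 UMIs, and St3gal5 and Abi3 had 1 UMI each in PD00, with ratios to Model of 0.0972 (0.0116 to 0.363), 0.0724 (0.00180 to 0.421) and 0.0738 (0.00183 to 0.430).

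Inflammatory genes were also lower in PD00 than in Model in 8 of 17 compared, with none higher and a median log2 ratio of -0.38. Il1b, interleukin 1 beta, had 808, 1061 and 133 UMIs, or 1511, 1050.0 and 505 CPM, and was 2.08-fold lower in PD00 (1.73 to 2.51). Ccl2, the main ligand of CCR2, had 56 UMIs in Control, 66 in Model and 2 in PD00, both of the latter in 1 cell, and its PD00 ratio to Model was 0.116 (0.0138 to 0.437). Cxcl2 did not follow, at 1.18 times the Model level (1.09 to 1.26).

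Against Control, the PD00 monocytes had less RNA of several inflammatory genes and more of Vcan and Fn1. Of 2242 genes compared, 133 (5.93%) were at least 1.5-fold higher in PD00 and 389 (17.4%) lower, with a median log2 ratio of -0.18. The higher share of these was 25.5%, but 54.0% with median-of-ratios scaling, 46.9% without the mixed cells and 42.9% without immunoglobulin genes in the total. Of 16 inflammatory genes compared, 10 were at least 1.5-fold lower and none was higher, with a median of -1.47, and of -1.12 without the mixed cells. Cxcl2 was 2.70-fold lower (2.52 to 2.90), Il1b 2.99-fold lower (2.49 to 3.62) and Nfkbia, an inhibitor of NF-kappa B that is itself an NF-kappa B target, 2.24-fold lower (1.96 to 2.56) at 2357, 1374 and 1053 CPM. Ccl4 was 10.04-fold lower (4.17 to 31.6), at 191, 99.96 and 19.0 CPM. Cxcl2 and Il1b were also lower in PD00 than in Control in B cells, by 8.24-fold and 4.23-fold, and in T cells. In C1q-high macrophages they were 5.34-fold and 2.42-fold lower, but in nonclassical monocytes only 1.15-fold and 1.05-fold. Lower Cxcl2 and Il1b were thus not particular to classical monocytes, and the part of free RNA in these differences was not tested.

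No interferon gamma or class II gene compared was at least 1.5-fold higher in PD00 than in Control with scaling by totals. Of the interferon gamma list only 4 genes reached the depth for this comparison, and 3 of them, immunoproteasome subunits, were at least 1.5-fold lower. With median-of-ratios scaling 1 of the 4 was lower and 1 higher, and without the mixed cells 1 of 3 was lower. H2-Ab1 was at 0.926 times the Control level (0.762 to 1.12), a difference within counting error. Of 6 class II genes compared, 2 were lower (H2-DMa and Cd86), with a median log2 ratio of -0.08. Without the mixed cells 3 of the 6 were lower, with a median of -0.60.

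Identity genes split between PD00 and Control, with 3 of 19 higher (Chil3, Fn1 and Vcan) and 5 lower (Plac8, Ms4a4c, Mgst1, Lyz2 and S100a4). Of all genes 5.93% were higher and 17.4% lower. Chil3, as described above, cannot be read as expressed by the PD00 monocytes. Without the mixed cells 4 identity genes were higher and 2 lower. Vcan was 4.56 times higher (3.06 to 6.91). Among other genes, the deubiquitinase gene Usp7 was at 69.2, 102 and 190.0 CPM (2.75, 1.76 to 4.32), Btbd9 at 41.2, 59.4 and 122 CPM, the translation initiation factor gene Eif4g1 at 76.7, 124 and 167 CPM, Zfp131 at 50.5, 58.4 and 118 CPM, and the phosphatase gene Ptpre at 195, 250.4 and 331 CPM. Each of these 5 genes was lowest in Control and highest in PD00. Rheb, an activator of the growth regulator mTORC1, was at 191, 129 and 45.6 CPM and 4.18-fold lower in PD00 (2.29 to 8.36).

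The same gene lists in the 2 nearest cell types gave other values, side by side. For the interferon gamma list, the median log2 ratio of Model against Control was 0.03 over 6 genes in nonclassical monocytes and 0.34 over 19 in C1q-high macrophages, against 0.91 in classical monocytes. That of PD00 against Model was -0.56 and -0.70, against -1.39. Gbp2 in nonclassical monocytes, with 18 UMIs each in Model and PD00, was 1.30 times higher in PD00 (0.640 to 2.65). It was 7.42-fold lower in classical monocytes, 1.68-fold in C1q-high macrophages (1.16 to 2.46), 1.73-fold in B cells and 1.46-fold in T cells. Gbp4 in C1q-high macrophages was 4.34 times higher in Model than in Control (1.65 to 16.2) and 7.65-fold lower in PD00 than in Model (4.31 to 14.8). In nonclassical monocytes its Model-to-Control ratio was 0.475 (0.234 to 0.931). For class II genes the PD00-to-Model medians were -0.71 in nonclassical monocytes and -0.10 in C1q-high macrophages. H2-Ab1 was 1.83-fold lower in PD00 than in Model in nonclassical monocytes (1.52 to 2.21) and 1.17-fold lower in C1q-high macrophages (1.15 to 1.19). The medians rest on different genes in each cell type, and the difference between cell types was not tested.

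Thbs1 was lowest in Model in all 3 cell types. In nonclassical monocytes it was at 109.9, 44.1 and 157 CPM and in C1q-high macrophages at 42.0, 5.10 and 30.04 CPM. The PD00 level was 3.57 times that of Model in the former (2.07 to 6.39) and 5.89 times in the latter (3.84 to 9.37). PD00 was the highest library in nonclassical monocytes, and not in classical ones. The C1q-high levels in Model and PD00 were close to or below those of T cells (14.0 and 33.2 CPM), so these 2 levels cannot be told from free RNA. Inflammatory genes did not share 1 course between PD00 and Model. Their PD00-to-Model median was 0.01 in nonclassical monocytes and 0.05 in C1q-high macrophages, against -0.38 in classical monocytes. Their Model-to-Control median was -0.10 in nonclassical monocytes, -1.69 in C1q-high macrophages and -0.75 in Cd209a dendritic cells, against -0.68 in classical monocytes. The PD00-to-Control medians were -0.07, -1.27 and -0.54, against -1.47. Lower medians than in Control were thus not particular to classical monocytes. Il1b was 1.49 times higher in PD00 than in Model in C1q-high macrophages (1.38 to 1.62), and 2.08-fold lower in classical monocytes.

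Nonclassical genes were higher in the Model monocytes than in Control. Of 13 compared, 6 were at least 1.5-fold higher (Ace, Treml4, Spn, Itgal, Adgre4 and Ear2) and none lower, with a median log2 ratio of 0.36. In PD00 against Model 6 were lower and 1 higher, with a median of -0.55. Without the Ace or Treml4 cells the medians were -0.10 and -0.09, so neither difference was seen without these cells. Ace and Treml4 are themselves on the list. Cx3cr1, the fractalkine receptor, was at 99.1, 94.0 and 30.4 CPM, and lower in PD00 than in Model by 3.09-fold (1.51 to 7.37). Spn, CD43, was at 71.1, 113 and 45.6 CPM, and its Model ratio to Control of 1.59 was 0.837 without these cells.

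Of the metabolic genes, named in the series title, those of oxidative phosphorylation differed in few members. Of 71 nuclear genes of oxidative phosphorylation, none was at least 1.5-fold higher in Model than in Control and 3 were lower, with a median log2 ratio of -0.17. In PD00 against Model 1 of 69 was higher and 5 lower, with a median of -0.03. Of 13 glycolysis genes compared, 1 was higher (Tpi1) and 1 lower (Eno1) in Model, near the 10.2% and 8.83% of all genes. In PD00 against Model 2 of 13 were higher and 1 lower, against 5.88% and 14.5% of all genes. The medians were 0.06 and, for PD00 against Model, -0.02. Eno1, enolase, was at 256, 147 and 247 CPM (1.74-fold lower in Model, 1.37 to 2.21). Of 20 tricarboxylic acid cycle genes 1 was higher and 3 lower in Model than in Control, and 4 higher and 3 lower with median-of-ratios scaling. In PD00 4 of 17 were lower than in Model and 3 of 7 lower than in Control, with 1 higher in each comparison. With median-of-ratios scaling 2 were lower in each. The 12 mitochondrially encoded genes compared held no member past 1.5-fold in any of the 3 comparisons with scaling by totals. In PD00 against Control 4 were higher with median-of-ratios scaling and 3 without the mixed cells. Of 8 cholesterol synthesis genes compared between Model and Control none passed 1.5-fold. For oxidative phosphorylation, the mitochondrially encoded genes and cholesterol synthesis, the shares past 1.5-fold in Model were below the 10.2% and 8.83% of all genes.

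Few cytokine receptor genes passed 1.5-fold in Model, where 10.2% of all genes were higher and 8.83% lower than in Control. Of 21 cytokine receptor genes compared, 1 was higher in Model than in Control (Il4ra) and 1 lower, with a median log2 ratio of -0.08. In PD00 against Model 1 of 21 was higher and 6 were lower, against 5.88% and 14.5% of all genes. Among the lower were Ifnar2, a chain of the type I interferon receptor (267, 224 and 144 CPM), and Il13ra1, a chain of the interleukin 13 receptor (73.0, 89.1 and 57.0 CPM). Of 15 chemokine receptor and adhesion genes compared, 3 were higher and 2 lower in Model than in Control. Ccr1, a receptor of CCL3, was at 288, 184 and 312 CPM, lowest in Model. Of 13 pattern recognition genes compared, 2 were at least 1.5-fold higher in Model (Myd88 and Cd36). There 3 were lower: Clec4e, Clec4d and the endotoxin co-receptor gene Cd14. Clec4e, the receptor Mincle, was at 574, 332 and 399 CPM.

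**Figure D5:**
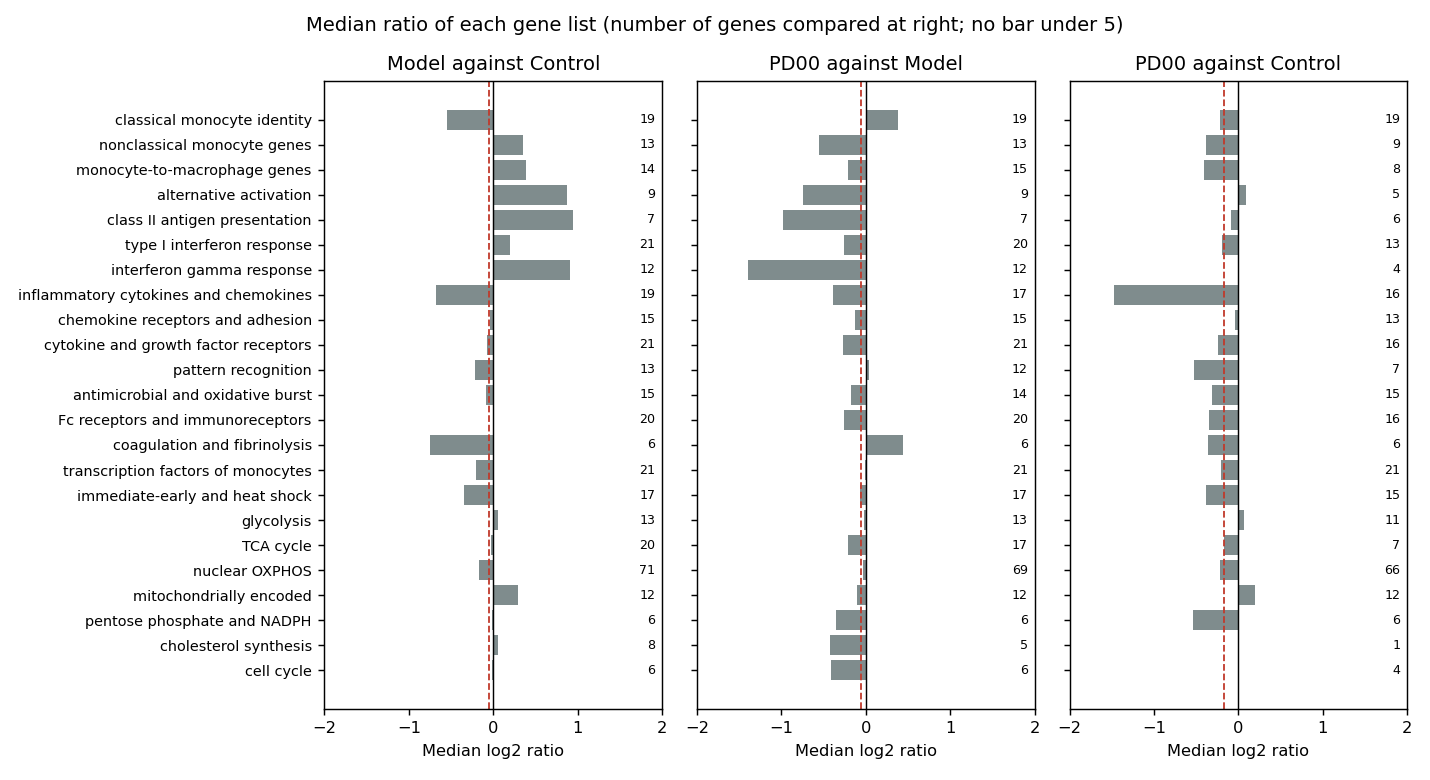
Median log2 ratio of CPM of 23 gene lists in the 3 comparisons, with the number of genes compared at the right of each bar, no bar under 5 genes, and a dashed line at the median of all genes. The interferon gamma and class II lists had medians of 0.91 and 0.94 in Model against Control and of -1.39 and -0.98 in PD00 against Model, and the inflammatory list had -1.47 in PD00 against Control.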

How the data were processed

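Single-cell RNA libraries (Chromium 3' v3 chemistry, per the labels) from mouse lung were analysed, 1 per treatment. The authors deposited matrices of raw UMI counts per gene and barcode for 32285 genes. Cell Ranger 3.1.0, STAR and build mm10 are named in the submitters' processing notes, while cellranger 5.0.0 is written per the file headers.

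A barcode was kept if it held 500 or more UMIs from 200 or more genes and its mitochondrial share did not exceed 20%. Doublets were scored with Scrublet in scanpy 1.11.5 and kept: 421, 252 and 274 kept cells scored above 0.2, among them 0, 1 and 0 monocytes. At Scrublet's own threshold it marked 421, 0 and 3 cells, so it did not work in Model or PD00, and doublets among the monocytes were not otherwise removed.

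UMIs were summed over the monocytes of a library and scaled to CPM. Ratios carry exact 95% conditional binomial intervals and shares exact Clopper-Pearson intervals (scipy 1.17.1, numpy 2.4.6, pandas 2.3.3), and the scripts' estimates were tested on simulated data. A gene was called past 1.5-fold by its point ratio. Selection genes were left out of calls. A count of 0 was set to 3 counts for bounds. With 1 sample per group there was no test. B cells served as the reference for free RNA, and T cells (chosen after seeing the data) for class II genes, which B cells express.

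Named were the marker genes, the 8 highest and 8 lowest genes per comparison, and 2 to 4 members of each of 23 lists. Ranking used whichever interval bound lay closer to 1, among genes with at least 50 UMIs, at least the level of the other kept cells, and no cell holding over 20% of the UMIs, and it passed over antigen receptor, sex-specific, haemoglobin, ribosomal protein and mitochondrial genes. Other genes in the text were chosen after their values were seen. The members and lists were chosen with earlier results of these data known, so a list's count is no independent evidence. The listed genes Mx1, Clec7a and Serpinb10 were not analysed here. Some genes that this rule names are not reported here.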

Additional observations from a re-analysis of the deposited data

How the results depend on the processing

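No paired analysis was possible because each group was 1 library, and for the same reason no replicate could be left out. The share ratios kept their direction under all alternatives tried, but the Model and Control shares were nearly equal without cells holding an Ace or Treml4 UMI. With the selection applied after thinning to 2000 UMIs the share ratios were 2.80 (Model to Control), 0.0337 (PD00 to Model) and 0.0944 (PD00 to Control), the last 2 resting on 1 PD00 cell. Numbers of genes past 1.5-fold, higher and lower, are given in the order Model against Control, PD00 against Model, PD00 against Control. With genes of at least 1 UMI they were 2727 and 3753, 4867 and 2017, and 4101 and 1785. With at least 200 UMIs they were 47 and 98, 31 and 72, and 16 and 110. With cells thinned to 1000 UMIs they were 53 and 95, 40 and 44, and 13 and 53. For PD00 against Control they were 243 and 207 with median-of-ratios scaling. Of the list medians, 983 of 1024 values moved little, 38 moved further and 3 changed sign. These were alternative activation (-0.38 over 3 genes) and interferon gamma (-0.069 over 1 gene) in Model against Control after thinning, and alternative activation in PD00 against Model at 12 or more Ly6c2 UMIs (0.0605). The H2-Aa ratio of PD00 to Model after thinning was 1.03.

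The following alternatives were chosen after seeing the data. Without mixed cells, 201 genes were higher and 228 lower in PD00 than in Control, and the Slpi ratio of Model to Control was 0.812. Without cells holding an Ace or Treml4 UMI, 168 genes were higher in Model than in Control, 317 lower in PD00 than in Model and 82 higher in PD00 than in Control, and the Model-to-Control ratios of Spn, Ccl2 and Ccl4 were 0.837, 1.04 and 1.06. At 12 or more Ly6c2 UMIs, 163, 130 and 46 genes were higher in the 3 comparisons, and the PD00-to-Model ratios of Cd177 and Ccl8 were 0.901 and 1.04. Without immunoglobulin genes in the total, 201 genes were higher in PD00 than in Control. Apart from fewer genes or cells entering, the cause was not tested. The 22 PD00 cells limit every value of that library.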

Other observations

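Immediate-early and heat shock genes, which tissue dissociation is known to induce, were held unevenly by the monocytes. Of 17 compared, none was at least 1.5-fold higher in Model than in Control and 4 were lower (Fos, Jun, Atf3 and Dusp1), with a median log2 ratio of -0.35. In PD00 against Model 5 were higher and 3 lower, but without the cells holding RNA of other lineages none of 14 was higher and 5 were lower, with a median of -0.54. Single cells set several of the PD00 levels: 77 of 78 Egr1 UMIs, 120 of 165 Fos UMIs and 72 of 140 Fosb UMIs each lay in 1 cell. The PD00 level of these 3 genes thus mainly describes single monocytes.

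Neutrophil granule and calprotectin genes were held in the same uneven way. S100a8 had 257, 577 and 194 UMIs in Control, Model and PD00, of which 154, 228 and 154 lay in 1 cell of each library. S100a9 had 368, 1159 and 180 UMIs, of which 201, 454 and 168 lay in 1 cell each. Prtn3, proteinase 3, had 52, 21 and 8 UMIs, with 31 of the Control UMIs in 1 cell. Of Mki67, a marker of dividing cells, 31 of the 60 Model UMIs lay in 1 cell. No level of these 4 genes can be read as that of the monocytes as a group.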
